A study of Sus scrofa with 70 samples.

Results

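The 10 genes UCHL1, ZBTB16, GFRA1, KIT, DMRT1, DAZL, SALL4, NANOS2, NANOS3 and ID4 are widely used as markers of spermatogonia, the germ cells at the base of the seminiferous tubules of the testis. They were picked from 35680 genes of the expression table by symbol, and the transcript values of each gene were summed. The symbol of 9 of them stood in the annotation. DAZL had no symbol there and was taken as ENSSSCG00000030671, an unnamed gene on the minus strand of chromosome 13 whose transcript ENSSSCT00000078185 shared 10 of 10 introns with DAZL of the RefSeq annotation of Sscrofa11.1.

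The samples came from 12-month-old boars of 2 kinds, the Banna mini-pig inbred line (BMI) and the Diannan small-ear pig (DSE), a non-inbred stock from which BMI was bred. The labels name no genetic change and no treatment. The testis, the epididymis and 3 accessory glands (vesicular, prostate and bulbourethral) were each sequenced in 3 RNA-seq libraries per breed, 30 in all, and in 1 PacBio Iso-seq library of full-length cDNA per breed and gland, 10 in all. The labels do not say which libraries came from the same animal, so the p-values below measure the spread between libraries.

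A spermatogonial stem cell either renews itself or enters differentiation. GDNF from Sertoli cells acts through the receptor GFRA1 with its partner RET and favours renewal, together with the transcriptional regulators ZBTB16, SALL4 and ID4 and the RNA-binding repressor NANOS2, while retinoic acid and KIT, the receptor of KITLG, accompany differentiation. DAZL, a germ cell RNA-binding protein, stays on into meiosis, and DMRT1, a DM-domain transcription factor, is also made by Sertoli cells. In an adult testis these cells lie among far more numerous spermatocytes and spermatids, and in RNA from whole tissue fewer cells of a type and less RNA per cell cannot be told apart.

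Levels are given in TPM, a share of each library's transcripts scaled to a fixed total, which allows for transcript length but does not carry the depth of a library. The labelled glands were checked against marker genes. In the 6 testis libraries the summed TPM of 8 spermatocyte markers was 158 to 588, of 9 spermatid markers 25580 to 117100, of 9 Sertoli markers 253 to 713 and of 7 Leydig markers 18620 to 63650. In the vesicular, prostate and bulbourethral glands the spermatocyte sum was at most 0.995, the spermatid sum at most 7.28 and the Leydig sum at most 1.71, while the Sertoli sum was 15.1 to 119. The epididymis held a spermatid sum of 1.9 to 1039, with 1039 in BMI replicate 2. Epithelial markers (5 genes) summed to 14.3 to 41.5 in testis and to 727 to 2793 elsewhere. DSE testis replicate 2 stood apart from the other testes, with the lowest spermatocyte and spermatid sums and the highest Sertoli and Leydig sums. Testis means, SDs and ranges below include it, and several tests of members are also given without it.

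The members were grouped by where they were found and by how high they were. DMRT1 and DAZL were testis transcripts, at 35.9 ± 6.33 and 60.0 ± 21.3 TPM (SD, n = 6) in testis and near 0 elsewhere. UCHL1, a deubiquitinating enzyme of spermatogonia and neurons, was highest in testis and epididymis. ZBTB16, KIT, GFRA1, SALL4 and ID4 were as high or higher in at least 1 other gland. NANOS2 was above 0 in 1 library only. NANOS3 was low throughout but had its highest mean in testis, 1.10 TPM, above those of SALL4 (0.47) and GFRA1 (0.43) there. The order of the mean levels in testis was DAZL, DMRT1, UCHL1, ID4, ZBTB16, KIT, NANOS3, SALL4, GFRA1 and NANOS2.

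**Figure D1:**
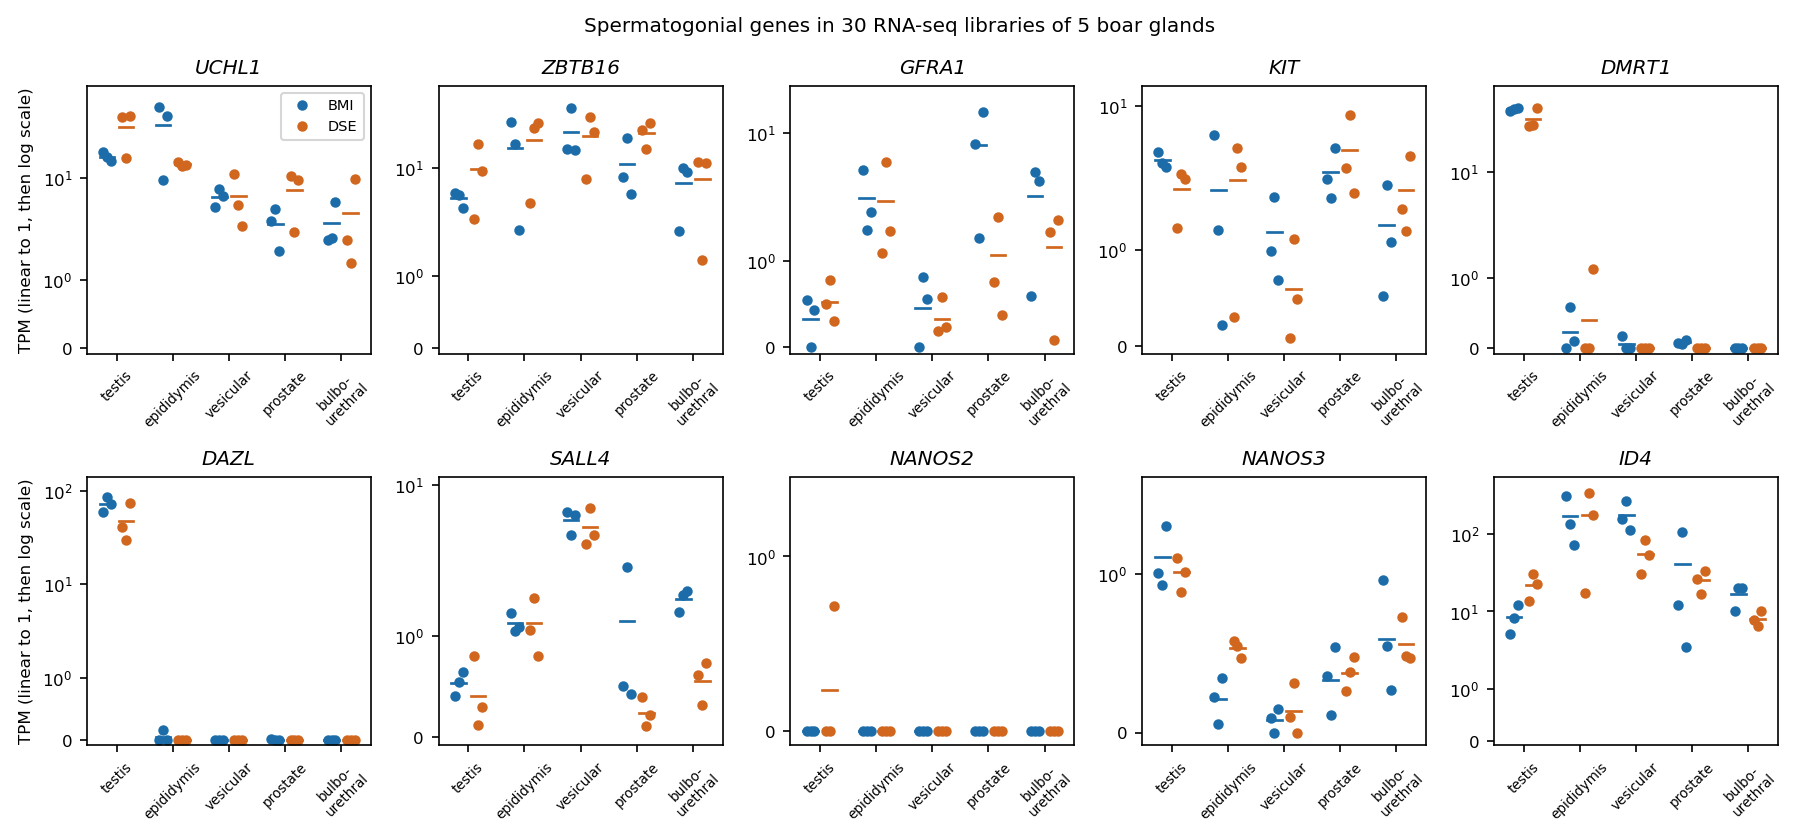
TPM of each gene (vertical axis, linear up to 1 and logarithmic above) in 5 glands (horizontal axis). Each point is 1 library, blue for BMI and orange for DSE, and each bar is the mean of 3 libraries. DMRT1 and DAZL are high in testis and near 0 elsewhere, SALL4 is highest in the vesicular gland, and ID4 reaches its highest values in epididymis and vesicular gland.

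For the tests, log2(TPM + 1) was fitted with limma, and a gene was called when its adjusted p (Benjamini-Hochberg over all genes tested) was below 0.05 and its log2 difference was at least 1. Because 1 was added to each TPM, log2 differences of low genes understate their change. Of 35680 genes, 19911 reached 1 TPM in at least 3 libraries and were tested. NANOS2 did not reach this level, so 9 of the 10 members were tested. NANOS3 and DAZL reached 1 TPM in testis libraries only, and DMRT1 in the testes and 1 epididymis, so these 3 entered the test through the gland where they are high.

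Testis against the mean of the other 4 glands asks which of these genes mark the organ that holds the germ cells. Of the 9 members, 3 were called higher in testis (UCHL1, DMRT1 and DAZL), 1 was called lower (ID4) and 5 were not called. Among all genes tested 47.3% were called, 34.5% higher and 12.7% lower, so the members' share lay near that of genes at large. Their median log2 difference was 0.53, and that of all genes was 0.31. In DMRT1 and DAZL all 6 testis libraries lay above all 24 others, a pattern shown by 23.8% of the genes tested. In no member did all 6 lie below all others, as they did in 3.14% of genes.

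**Figure D2:**
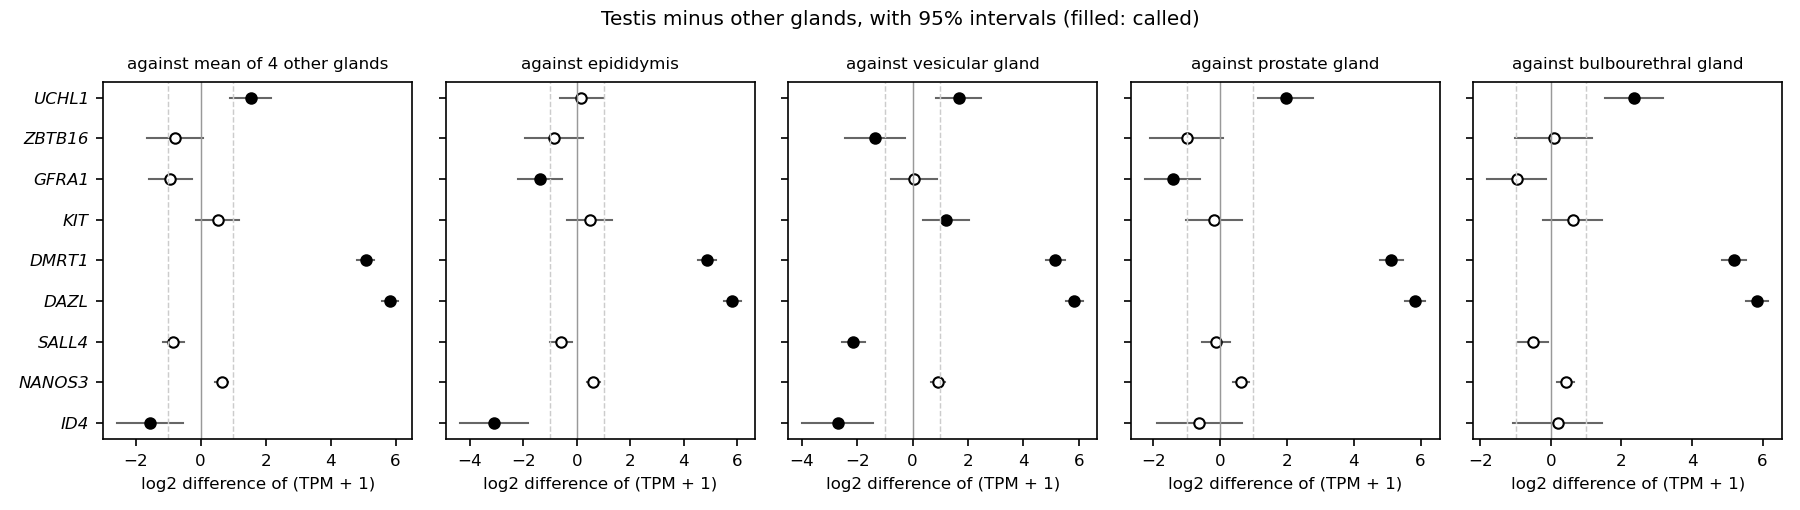
Log2 difference of (TPM + 1), testis minus the mean of the other glands and minus each gland (horizontal axes), for the 9 members tested (vertical axis). Points are limma estimates with 95% intervals, filled where called, and dashed lines mark a difference of 1. DMRT1 and DAZL lie near 5 to 6 in every panel, UCHL1 is called against all but the epididymis, and the lowest estimates are those of ID4 against epididymis and vesicular gland.

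DAZL gave the largest difference. Its TPM was 58.9, 86.1 and 71.2 in the BMI testes and 40.6, 29.8 and 73.1 in the DSE testes. Elsewhere it was above 0 in only 2 of 24 libraries, at 0.173 in BMI epididymis replicate 2 and 0.03 in BMI prostate gland replicate 1. The testes therefore did not overlap the other glands, and the log2 difference was 5.83 (SE 0.12, adjusted p = 7.0e-23). BMI epididymis replicate 2, the one with DAZL, was also the epididymis with the highest spermatid sum, and the part of germ cells in its value was not tested.

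DMRT1 had 38.6, 39.5 and 41.2 TPM in the BMI testes and 27.8, 27.9 and 40.6 TPM in the DSE testes. In the other glands it reached at most 1.22 TPM, in DSE epididymis replicate 3, and it was at 0 in all 6 bulbourethral libraries. Its log2 difference was 5.08 (SE 0.13, adjusted p = 2.3e-21), and it was called against each of the 4 glands.

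UCHL1 had 17.8, 16.2 and 14.5 TPM in the BMI testes, a narrow range. The DSE testes split, with 39.5 and 40.5 TPM in replicates 1 and 3 and 15.6 TPM in replicate 2. The epididymis held 9.51 to 49.6 TPM (median 13.8), while the vesicular, prostate and bulbourethral glands had medians of 6.08, 4.39 and 2.54 TPM. Testis exceeded the mean of the other glands by 1.54 (SE 0.31, adjusted p = 9.8e-05), but testis and epididymis were not told apart, with a log2 difference of 0.17 and a 95% interval of -0.64 to 0.98.

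ID4, an inhibitor of bHLH transcription factors, was lower in testis. It had 5.17, 8.15 and 12.1 TPM in the BMI testes and 13.6, 30.2 and 22.5 TPM in the DSE testes. The epididymis ranged from 17.2 to 329 TPM (median 154) and the vesicular gland from 29.9 to 264 TPM (median 96.9). Against the mean of the other glands testis was lower by a log2 difference of -1.56 (SE 0.49, adjusted p = 0.0058). With the 24 other libraries pooled as 1 group, the difference of -1.56 was no longer called (adjusted p = 0.066). The call came from epididymis (-3.09) and vesicular gland (-2.71), whereas the prostate and bulbourethral glands were not called.

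The spread of ID4 within a gland was large, 17.2 against 329 TPM within the DSE epididymis. In 4 of the 5 glands (all but testis) the library with the least ID4 was the one at the upper end of the leading axis of variation within glands over all genes tested, an axis that held 28.6% of the within-gland variance. The same held for ZBTB16 in 4 of 5 glands (all but epididymis). Both genes were among those that set the axis, and the share of all genes with such a match was not counted. In each gland the library at the upper end of this axis is also the one with the lowest RNA integrity measure in the study's own quality table, and the part of RNA quality in the ID4 and ZBTB16 values was not tested.

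ZBTB16, the zinc finger protein PLZF of undifferentiated spermatogonia, was present in all 30 libraries. Testis had 5.87, 5.63 and 4.23 TPM in BMI and 3.37, 16.6 and 9.28 TPM in DSE. The vesicular gland had the highest mean, 20.5 ± 10.3 TPM, followed by epididymis (16.5 ± 10.6), prostate (15.9 ± 7.89), bulbourethral gland (7.53 ± 4.38) and testis (7.50 ± 4.91; SD, n = 6 each). Testis was called lower than the vesicular gland (-1.35, SE 0.53, adjusted p = 0.025), and no other single gland was called against testis. Against the mean of the 4 glands the difference was -0.78 (adjusted p = 0.093), or -1.01 (adjusted p = 0.051) without DSE testis replicate 2 and -0.51 (adjusted p = 0.31) without DSE testis replicate 1. Under median-of-ratios size factors it became -1.01 (adjusted p = 0.0071), which is a call.

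GFRA1, the GDNF receptor, was scarce in testis. It had 0.55, 0 and 0.44 TPM in the BMI testes and 0.50, 0.78 and 0.30 TPM in the DSE testes, under 1 TPM in all 6. The epididymis had 1.16 to 5.92 TPM and the prostate gland 0.37 to 14.5 TPM, with the highest value in BMI replicate 3. That library is the prostate library at the upper end of the within-gland axis. The prostate mean was 8.10 TPM in BMI and 1.12 TPM in DSE, with a median of 1.875 TPM over both. Testis was called lower than epididymis (-1.37, SE 0.40, adjusted p = 0.0039) and prostate gland (-1.42, SE 0.40, adjusted p = 0.0031). Against the vesicular gland the difference was 0.04, with a 95% interval of -0.79 to 0.87. Against the mean of the 4 glands the log2 difference of -0.93 (SE 0.32, adjusted p = 0.011) fell short of 1.

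KIT, the receptor tyrosine kinase of differentiating spermatogonia and of mast cells, had 4.79, 3.98 and 3.76 TPM in the BMI testes and 1.42, 3.36 and 3.11 TPM in the DSE testes. The prostate gland had a mean of 4.20 ± 2.36 TPM, testis 3.4 ± 1.13, epididymis 2.83 ± 2.56, bulbourethral gland 2.04 ± 1.44 and vesicular gland 0.96 ± 0.78 (SD, n = 6 each). Testis was called higher than the vesicular gland only (1.20, SE 0.40, adjusted p = 0.010). Of 3 mast cell markers in the table, none was called between testis and the other glands, and their sum was 1.0 to 11.2 TPM in testis and 0.39 to 45.1 TPM elsewhere. The 11.2 TPM was that of DSE testis replicate 2, and the other testes had at most 3.87 TPM. The part of mast cells in the KIT values was not tested.

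SALL4, a zinc finger factor of early germ cells and pluripotent cells, was not a testis transcript in these libraries. It had 0.41, 0.55 and 0.65 TPM in the BMI testes and 0.80, 0.12 and 0.30 TPM in the DSE testes. The 6 vesicular libraries had 4.03 to 6.95 TPM and the 24 others at most 2.84 TPM. The share of all genes with such a pattern was not counted. The vesicular gland was called above testis (log2 difference 2.14 in size, SE 0.20, adjusted p = 5.9e-10), epididymis, prostate gland and bulbourethral gland. Against the mean of the other glands testis was lower by -0.84 (SE 0.16, adjusted p = 4.3e-05), under the threshold of 1.

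NANOS3, an RNA-binding protein that protects early germ cells, had 1.01, 0.93 and 1.59 TPM in the BMI testes and 1.17, 0.89 and 1.02 TPM in the DSE testes. Of the 24 other libraries, 23 lay below the lowest testis, the exception being BMI bulbourethral gland replicate 1 at 0.96 TPM. The log2 difference of 0.65 (SE 0.09, adjusted p = 9.9e-07) was small on the scale with 1 added. With 0.1 added in place of 1, NANOS3 (1.62), GFRA1 (-1.65) and SALL4 (-1.47) were all called, so for these 3 low genes the call depends on the constant. NANOS2 was listed at 0.72 TPM in DSE testis replicate 3 and at 0 in the other 29 libraries.

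Against single glands, 4 members were called between testis and epididymis (51% of all genes), 7 between testis and vesicular gland (52.9%), 4 between testis and prostate gland (48.8%) and 3 between testis and bulbourethral gland (49.1%). DMRT1 and DAZL were called higher in testis in all 4 comparisons. The 7 calls against the vesicular gland, 5 without replicate 3 of all groups, had UCHL1, KIT, DMRT1 and DAZL higher in testis and ZBTB16, SALL4 and ID4 lower. At 0.1 added, 5 members were called against the bulbourethral gland. The 49.1% of all genes was not obtained with 0.1 added, so this count cannot be set against it.

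Between the other glands there were 15 member calls in all, 10 without replicate 3 of all groups. The vesicular gland differed from the prostate gland in 4 members (14.8% of all genes) and from the bulbourethral gland in 4 (27.8%), and the epididymis differed from the vesicular gland in 3 (36.5%). The epididymis was called against the prostate gland in 2 members (21.3%) and against the bulbourethral gland in 2 (21.3%), UCHL1 and ID4 in both. No member was called between prostate and bulbourethral glands by limma (7.65% of all genes), and none had an unadjusted p under 0.05. ID4 in vesicular gland exceeded prostate gland by 2.10 and bulbourethral gland by 2.90, each with an SE of 0.61.

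The full-length reads gave a second readout of the same tissues. The Iso-seq libraries held 231413 to 458697 full-length reads each. DAZL had 98 reads in BMI testis and 41 in DSE testis, or 21.5 (exact 95% Poisson interval 17.5 to 26.2) and 8.96 (6.43 to 12.2) per 100000 reads. It had none in the 8 other libraries. DMRT1 had 76 reads in BMI testis and 47 in DSE testis, or 16.7 (13.2 to 20.9) and 10.3 (7.54 to 13.7) per 100000, and none elsewhere. With the limit for a count of 0 set at 3 reads, it allows up to 0.65 to 1.3 per 100000 in these libraries, while the exact 95% intervals plotted reach 0.80 to 1.59. The intervals and this limit cover counting error only, and 1 library per group gives no test between breeds.

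ZBTB16 was found in all 10 Iso-seq libraries, with 7 and 14 reads in the BMI and DSE testes, 63 and 84 in the vesicular glands and 71 and 53 in the prostate glands. Per 100000 reads that is 1.54 and 3.06 in testis, 21.4 and 26.4 in vesicular gland and 27.0 and 15.8 in prostate gland. The Poisson intervals of the testes, at most 5.13, did not reach those of the vesicular and prostate glands, which began at 11.8. KIT had 35 and 13 reads in testis, or 7.69 (5.36 to 10.7) and 2.84 (1.51 to 4.86) per 100000. Its highest rate, 10.7 (7.50 to 14.8), was in the DSE prostate gland.

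ID4 had 4 and 3 reads in the testes against 53 in the BMI vesicular gland and 22 in the DSE epididymis, but none in the DSE vesicular gland, whose 3 RNA-seq libraries held 29.9, 82.5 and 52.6 TPM. SALL4 had 20 reads, none of them in testis, with 11 in the vesicular glands, 8 in the BMI prostate gland and 1 in the BMI bulbourethral gland. UCHL1 had 18 reads spread over 7 libraries, 8 of them in testis. Per 100000 reads that is 0.659 (0.136 to 1.93) in BMI testis and 1.09 (0.355 to 2.55) in DSE testis. Its highest rate, 1.26 (0.343 to 3.22), was in the DSE vesicular gland, and the BMI epididymis had 0 (0 to 0.804). NANOS2 and NANOS3 had no isoform. GFRA1 was read only within 7 isoforms that joined it to the neighbouring gene ENSSSCG00000060936, and these stand outside its TPM sum. They had 68 reads, 40 of them in the BMI bulbourethral gland, 20 in the BMI epididymis, 3 in testis and none in the prostate glands, where its TPM had the highest mean.

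**Figure D3:**
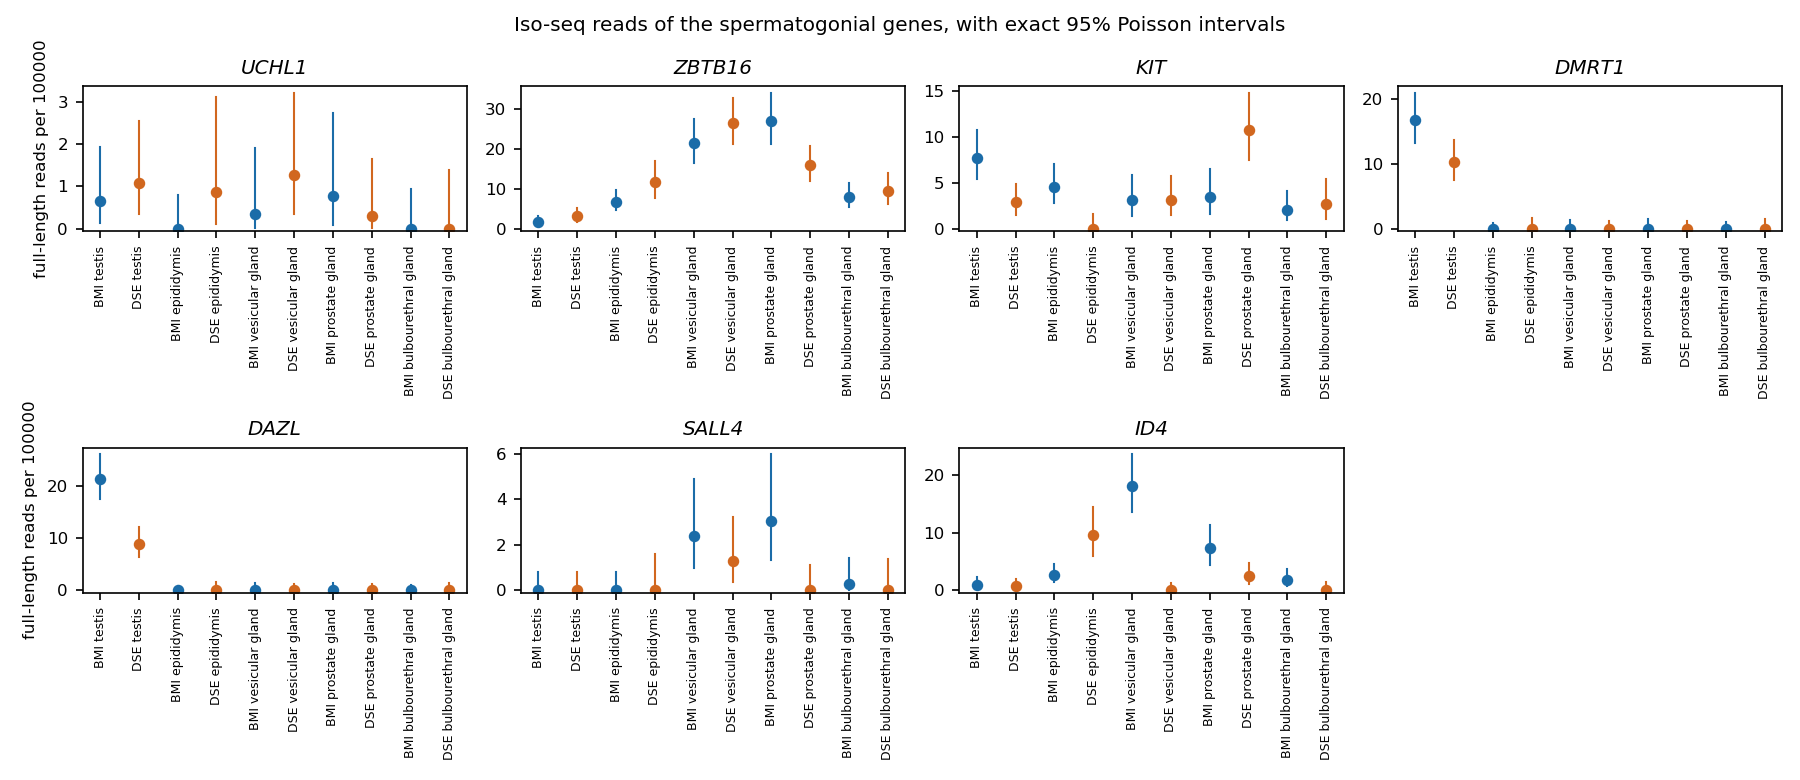
Full-length Iso-seq reads per 100000 of the library (vertical axes) in 10 libraries (horizontal axes, blue BMI, orange DSE) for the 7 members with reads of their own, with exact 95% Poisson intervals. DMRT1 and DAZL have reads in the 2 testis libraries only, at 8.96 to 21.5, and ZBTB16 is lowest in testis.

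The DAZL transcripts differed in their start. On chromosome 13 (minus strand, Sscrofa11.1) the Ensembl transcript ENSSSCT00000078185 began in an exon at chr13:3782729-3783122, and the Iso-seq isoforms PB.4073.99 and PB.4073.98 began in exons at chr13:3782203-3782308 and chr13:3781833-3782026. All 3 joined the same second exon, chr13:3776001-3776147. The junctions are shown because the first exon decides whether the annotated start codon is present. Read 5′ to 3′, capitals mark the last 15 bases of the first exon and lower case the first 15 of the second.
ENSSSCT00000078185: GCTGTCGCAGTAATGtctgctgcaaatcct
PB.4073.99: GAGCCGACTCGGGAGtctgctgcaaatcct
PB.4073.98: ATTGACCACCTCAAGtctgctgcaaatcct
Only the first of these first exons ends in ATG, the start codon of the annotated coding sequence. In the genome each of the 3 is followed by GT. The open reading frame that the authors' classification predicted for the other 2 isoforms had 258 amino acids, against 295 for the isoform that matched the Ensembl transcript.

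The 2 assays weighed these starts differently. In the TPM values PB.4073.99 held 42.9% of testis DAZL (25.7 TPM on average), ENSSSCT00000078185 held 35.3% (21.1 TPM), PB.4073.98 held 11.4% and PB.4073.96, which begins in the Ensembl first exon and has 1 exon fewer, held 10.4%. In the full-length reads the isoform matching the Ensembl transcript held 84 of 98 reads in BMI testis, or 85.7% (exact binomial 95% interval 77.2 to 92.0%), and 27 of 41 in DSE testis, or 65.9% (49.4 to 79.9%). PB.4073.99 held 8.16% (3.59 to 15.5%) and 26.8% (14.2 to 42.9%). Between testis libraries PB.4073.98 ranged from 0.43 TPM in DSE replicate 2 to 13.3 in DSE replicate 1, and PB.4073.99 from 13.3 to 39.7 TPM.

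**Figure D4:**
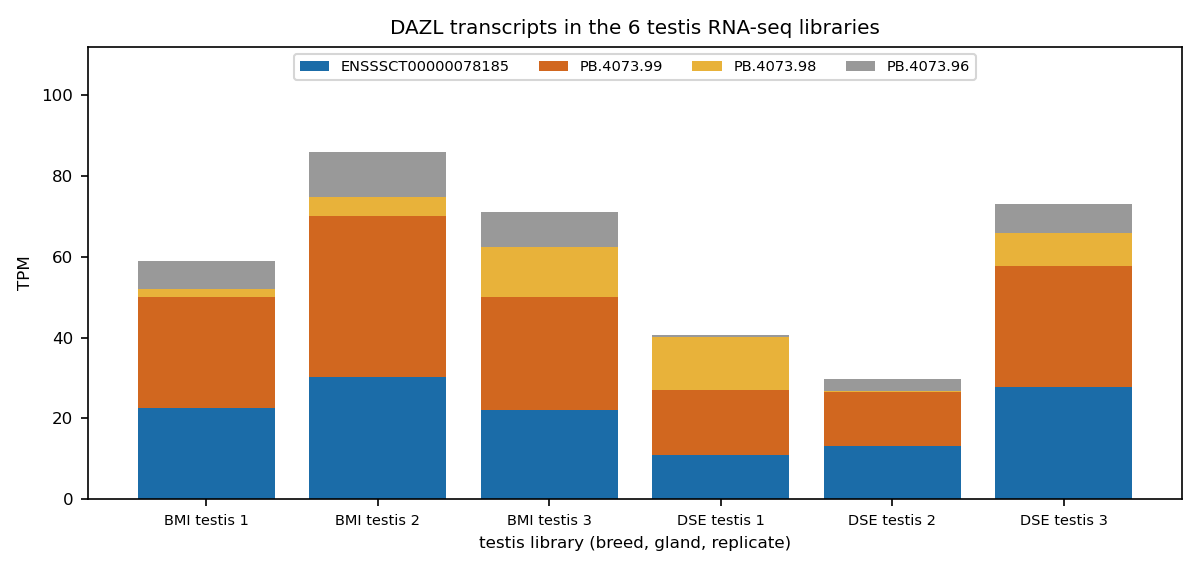
TPM of the 4 DAZL transcripts with a value (stacked bars, vertical axis from 0) in the 6 testis RNA-seq libraries (horizontal axis). ENSSSCT00000078185 and PB.4073.99 make up most of each bar, PB.4073.98 reaches 13.3 TPM in DSE replicate 1, and DSE replicate 2 has the lowest total at 29.8 TPM.

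Among other differences, such as their ends, the KIT models differ in whether they hold 2 bases within the gene. The Ensembl transcript ENSSSCT00000009679, which carried 73.1% of testis KIT TPM, leaves out chr8:41451389-41451390 as a gap between exons. The exon models of both Iso-seq isoforms of KIT, which took all 148 of its full-length reads, run through it. So does the Ensembl transcript ENSSSCT00000078263, which has no TPM row. The bases of the reads there were not examined, so the read count does not show whether they hold these 2. The stretch chr8:41451375-41451404 (plus strand, Sscrofa11.1) is shown with the 2 bases in capitals.
KIT: ttctgcggcaggaaAGctgacaatcagctc
PB.18690.2 held 26.3% of testis KIT TPM and 146 of the 148 full-length reads. The KIT sum holds both models, and how short reads were divided between them was not tested.

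In DMRT1 the Ensembl transcript ENSSSCT00000005770 held 71.5% of the testis TPM and the matching isoform held 71 of 76 full-length reads in BMI and 39 of 47 in DSE. Its isoform PB.1724.3, which starts further downstream, at 220917789 against 220953442, held 19.9% of the testis TPM but 3 of 123 full-length reads, so here too the 2 assays gave unlike shares. UCHL1 TPM was split 71.9% and 28.1% between 2 Ensembl transcripts, with shares of 70.6 to 77.0% for the first in the other glands. In ZBTB16 the Iso-seq isoform PB.19744.6 held 37.3% of the testis TPM and 339 of its 406 full-length reads. In ID4 the isoform PB.17283.2 held 52.4% of the testis TPM and 115 of 128 full-length reads.

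The breeds were compared within testis, since BMI is inbred and DSE is not. No member was called by limma between DSE and BMI testes, and among all genes 0.196% were called. The share of all genes with an unadjusted p under 0.05 was not counted, and of the 9 members only ID4 had one. Its 3 DSE libraries (13.6 to 30.2 TPM) lay above its 3 BMI libraries (5.17 to 12.1 TPM), as in 7.59% of genes tested. The log2 difference was 1.28 (95% interval 0.30 to 2.27, adjusted p = 0.33), and 1.03 (adjusted p = 0.35) without DSE replicate 2. The 3 DSE libraries of KIT lay below those of BMI, as in 15.2% of genes, with a log2 difference of -0.55 (95% interval -1.25 to 0.14, adjusted p = 0.46) that was -0.29 (adjusted p = 0.38) without DSE replicate 1, the testis at the upper end of the within-gland axis.

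DSE testis replicate 2 moved other breed values. With all libraries the UCHL1 difference, DSE minus BMI, was 0.83 (SE 0.39, adjusted p = 0.44). Without that library the difference was 1.26, with an unadjusted p of 0.00024 and an adjusted p of 0.054. For ZBTB16 the difference of 0.58 (adjusted p = 0.61) became 0.11 without it, and 1.12 (adjusted p = 0.26) without DSE replicate 1. For DAZL the difference of -0.66 (adjusted p = 0.47) became -0.38 without it and -1.01 (adjusted p = 0.17) without DSE replicate 3. None of these is a call, and their 95% intervals with all libraries, -0.13 to 1.78, -0.71 to 1.87 and -1.54 to 0.21, each hold 0 and values beyond 1 in size.

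In the other glands no member was called by limma between breeds either. Over all genes 0% were called for the epididymis, 0.01% for the vesicular, 0.0854% for the prostate and 0.0251% for the bulbourethral gland. In the same order, 1, 1, 1 and 2 members had an unadjusted p under 0.05. Shares of all genes below that p were not counted. In the vesicular gland ID4 had 152, 264 and 111 TPM in BMI and 29.9, 82.5 and 52.6 TPM in DSE. The limma log2 difference was -1.68 (SE 0.49, adjusted p = 0.26). The value of 29.9 TPM was that of DSE replicate 1, the vesicular library at the upper end of the within-gland axis. In the bulbourethral gland SALL4 had 1.45, 1.88 and 1.97 TPM in BMI and 0.62, 0.32 and 0.74 TPM in DSE, a log2 difference of -0.83 (SE 0.14, adjusted p = 0.29). For these glands the share of all genes whose breeds did not overlap was not counted. The breed effect in testis against that in the other glands was called for no member by limma (3.86% of all genes). DAZL had the lowest adjusted p there, 0.14, with an unadjusted p of 0.013 that was the only one under 0.05.

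DSE testis replicate 2 was set beside the other 5 testes as a description, with no test. Members split there. ZBTB16 (16.6 against 5.68 ± 2.26 TPM, SD, n = 5) and ID4 (30.2 against 12.3 ± 6.60 TPM) were the highest of the 6 testes, at 2.93 and 2.45 times the mean of the others. DAZL (29.8 against 66.0 ± 17.2 TPM) was the lowest, at 0.45 times. NANOS3 was also lowest, at 0.78 times, within the spread of the others (0.89 against 1.14 ± 0.27 TPM). Of the 7 members with at least 1 TPM in 3 testes, 2 were highest and 2 lowest in this library, where 36.8% and 40.3% of 16414 genes were. UCHL1 (15.6 TPM), KIT (3.36 TPM) and DMRT1 (27.9 TPM) lay within the range of the others. Among the low members GFRA1 was highest at 0.78 TPM and SALL4 lowest at 0.12 TPM.

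The marker lists in that library moved by cell type. All 8 spermatocyte and all 9 spermatid markers were lowest there, at median ratios of 0.34 and 0.28 to the mean of the other testes, and all 9 Sertoli and all 6 Leydig markers were highest, at 2.21 and 2.57. PRM1, a protamine of spermatids, had 18220 TPM against 46810 to 71830, and INSL3, a hormone of Leydig cells, had 42360 TPM against 11450 to 23380. Peritubular, endothelial and macrophage markers had median ratios of 1.65, 1.55 and 1.35, 2 mast cell markers 4.85, and neural and epithelial markers 0.41 and 0.66. This library was also the testis at the lower end of the within-gland axis, with the highest RNA integrity measure of the 6 testes in the study's quality table. The parts of cell mixture and RNA quality in the members' values were not tested.

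**Figure D5:**
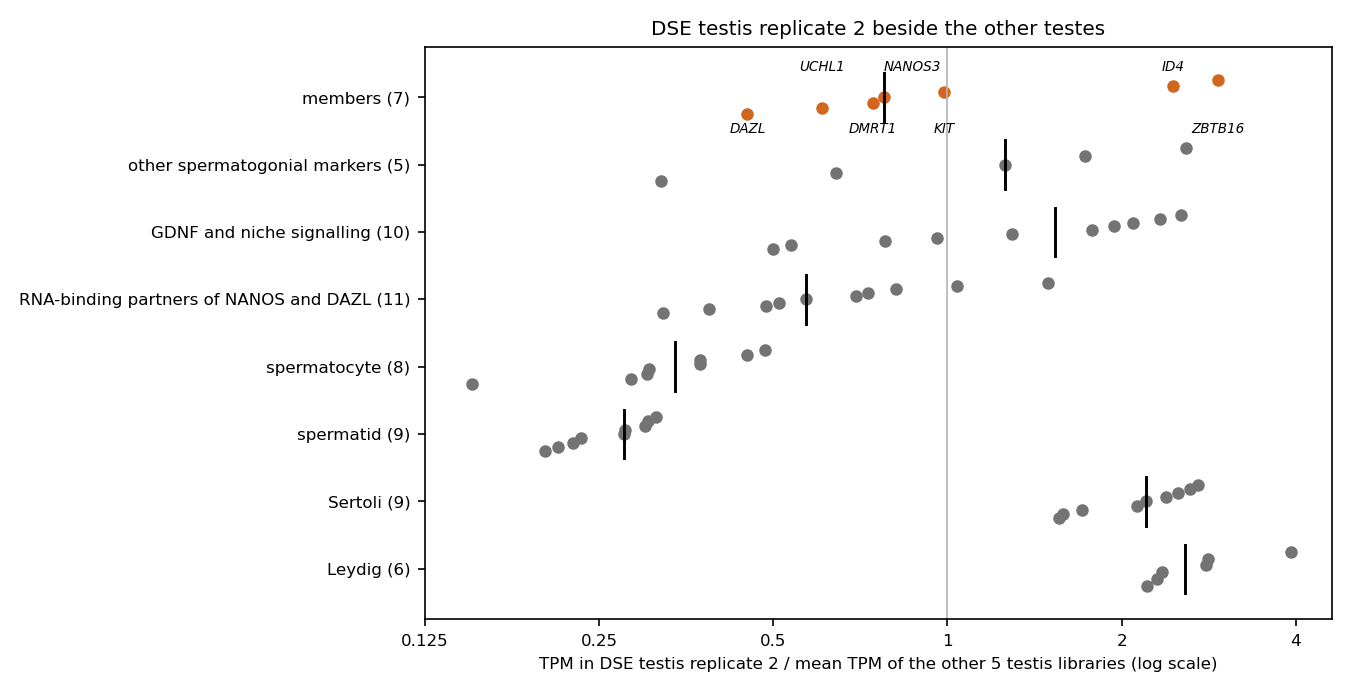
TPM in DSE testis replicate 2 divided by the mean of the other 5 testis libraries (horizontal axis, log scale) for genes with a mean of at least 1 TPM in those 5, by list (vertical axis, number of genes in parentheses). Points are genes, orange for members, and black bars are medians. DND1, at 0 in this library and in 1 other testis, counts in its list but has no point on the log axis. Members run from 0.45 for DAZL to 2.93 for ZBTB16, and among the lists plotted the medians run from 0.28 (spermatid) to 2.57 (Leydig).

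The GDNF pathway and niche list held 13 genes in the table, 11 of them tested. ETV5, MYCN and FOXO1, transcription factors downstream of GDNF signalling or of stem cell renewal, were called higher in testis than in the mean of the other glands. CSF1, CSF1R and FGFR3 were called lower. The list median was 0.23, below the 0.31 of all genes. ETV5 had 33.0 ± 9.29 TPM in testis and 21.3 ± 10.6 in epididymis (SD, n = 6), and CXCL12, a chemokine that retains stem cells, had 18.8 ± 10.5 and 32.4 ± 22.9 TPM and was not called. GDNF itself had 0.23 ± 0.13 TPM in testis and did not enter the test. RET had 1.28 ± 0.39 TPM in testis and a difference of 0.58 (adjusted p = 2.7e-04), under the threshold. Apart from ETV5 and CXCL12, the genes of this paragraph were named after their values were seen.

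The list around KIT, retinoic acid and differentiation had 5 of 11 tested genes called higher and 3 called lower in testis, with a median of 0.38. ALDH1A2, an enzyme of retinoic acid synthesis, was higher at 105 ± 32.0 TPM against 6.59 to 30.3 TPM in the mean of each other gland. ALDH1A1, a related enzyme, was lower than the mean of the other glands, at 58.0 ± 38.5 TPM against 1185 ± 441 in epididymis and 168 ± 108 in vesicular gland, while the prostate (53.7 ± 40.3) and bulbourethral glands (56.2 ± 51.1) had means near that of testis. The other 4 called higher were ALDH1A3, CYP26B1, SOHLH2 and STRA8, and the other 2 called lower were KITLG and RARG, all named after their values were seen. STRA8, which germ cells make on entry into meiosis, had 14.3 ± 6.28 TPM in testis and at most 0.47 TPM in the mean of any other gland. KITLG, the ligand of KIT, had 6.92 ± 5.85 TPM in testis and 8.62 to 25.6 TPM in the mean of the other glands. In DSE testis replicate 2 ALDH1A1 had 133 TPM and KITLG 18.3 TPM, against 28.3 to 64.1 and 3.17 to 7.89 TPM in the other 5 testes.

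Of 12 further spermatogonial markers listed there, 6 were tested, with 2 called higher in testis (ELAVL2 and TAF4B) and 1 called lower (ITGA6), named after their values were seen. The list median was 0.27. TSPAN33 had 37.7 ± 7.77 TPM in testis and 176 ± 91.7 in prostate gland, and ADGRA3 had 19.1 ± 10.2 TPM in testis and 14.9 to 25.9 in the mean of each other gland, and neither was called. In DSE testis replicate 2 ADGRA3 was highest (39.0 against 12.4 to 19.8 TPM) and TSPAN33 lowest (25.7 against 31.2 to 47.2 TPM), a split like that of the members.

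Of 11 RNA-binding partners of NANOS and DAZL, 7 were called higher in testis and 0 lower, with a median of 1.29. PABPC1, the poly(A)-binding protein that DAZL recruits, had 872 ± 210 TPM in testis and 288 to 344 TPM in the mean of each other gland. DAZAP1, a DAZL-associated protein, had 246 ± 73.7 TPM in testis and 33.3 to 52.2 TPM elsewhere. The limma differences were 1.46 (SE 0.18, adjusted p = 4.9e-08) and 2.42 (SE 0.13, adjusted p = 1.1e-14). Both were lowest in DSE testis replicate 2, like 8 of the 11.

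Of 19 relatives of the members that were tested, 7 were called higher in testis and 5 lower, with a median of 0.46. UCHL3 and BAP1, of the enzyme class of UCHL1, had 91.3 ± 21.5 and 62.1 ± 7.07 TPM in testis and were both called higher (2.70 and 1.43). The 5 called lower were ID1, ID2, ID3, NANOS1 and PDGFRB, named after their values were seen, and the first 3 are the paralogues of ID4. ID2 had 4.08 ± 0.99 TPM in testis and 30.6 to 170 TPM in the mean of each other gland. Between breeds in testis no gene of these 5 lists was called by limma.

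The cell type lists gave the setting of the testis values. All 8 spermatocyte, all 9 spermatid and all 6 Leydig markers tested and 7 of 9 Sertoli markers were called higher in testis, and 1 Sertoli marker, SOX9, was called lower (-1.05, adjusted p = 0.0014), named after its value was seen. TEX101 and SYCP3 had 134 ± 49.9 and 126 ± 47.0 TPM, PRM1 and TNP1 had 51530 ± 18470 and 15630 ± 7283, CLDN11 and INHA had 182 ± 100 and 92.1 ± 51.1, and INSL3 and CYP17A1 had 19670 ± 12000 and 6442 ± 3752 TPM. All 6 peritubular and smooth muscle markers and all 5 epithelial markers were called lower, 0 of 6 endothelial markers were called, 4 of 6 macrophage markers were lower and 1 higher, and 7 of 10 neural and neuroendocrine markers were higher and 1 lower. The leading genes of the last lists in testis were TAGLN and ACTA2 (69.4 and 65.2 TPM), EPCAM and KRT8 (22.5 and 5.40 TPM), PECAM1 and VWF (19.1 and 14.1 TPM), C1QA and MRC1 (16.0 and 12.3 TPM), CHGA and TUBB3 (57.1 and 32.8 TPM) and FCER1A and MS4A2 (2.30 and 1.26 TPM). FCER1A and MS4A2 had 7.89 and 2.82 TPM in DSE testis replicate 2, and means of 1.18 and 0.94 TPM in the other 5 testes.

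The genes whose log2(TPM + 1) most resembled each member over the 30 libraries were found by Pearson's r, which is given with no p because libraries of a gland share its cell types. DAZL was nearest to TEX101 and SYCP3 (r = 0.999 for both), and 1740 genes with a symbol had an r above 0.9 with it. DMRT1 was nearest to SEC14L3 (0.995) and SULT4A1 (0.994), with 1730 such genes. SALL4 was nearest to ADGRF1 (0.930) and ADAMTS14 (0.909), with 8 such genes, and ID4 to EPS8 (0.924) and KIAA1549 (0.918), with 2. The others had none above 0.9. UCHL1 was nearest to HMG20B (0.857) and AMN (0.845), ZBTB16 to NOTCH2 (0.878) and LNPEP (0.861), and KIT to NIPAL3 (0.835) and CALCRL (0.823). NANOS3 was nearest to NBAS (0.899) and C15orf61 (0.894), and GFRA1 to CASKIN2 (0.801) and ARHGEF15 (0.80).

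In the annotation of Sscrofa11.1 the 10 loci lie on 9 chromosomes. UCHL1 (chr8:32353246-32367332, plus strand) and KIT (chr8:41402043-41493734, plus strand) share one. The others are DMRT1 at chr1:220841452-220953442, NANOS3 at chr2:65274849-65278689, NANOS2 at chr6:52219418-52219834 and GFRA1 at chr14:126277875-126499465, all on the minus strand, ID4 at chr7:15281563-15286415 and ZBTB16 at chr9:41639551-43721892 on the plus strand, and DAZL at chr13:3762900-3783122 and SALL4 at chr17:53082886-53103190 on the minus strand. The far end of ZBTB16 comes from 1 isoform, PB.19744.7, with 21 full-length reads, while its other transcripts end by 41836742.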

How the data were processed

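Transcript TPM of 30 RNA-seq libraries and full-length read counts of 10 Iso-seq libraries were used. The authors deposited TPM that they obtained with Salmon (1.9.0 in the submitters' processing notes) from a merged Ensembl and Iso-seq annotation of Sscrofa11.1. They deposited Iso-seq counts per isoform without normalization, after clustering, alignment, collapsing and classification with SQANTI3. The labels give rRNA depletion for RNA-seq and the methods poly-T beads. The table lists no transcript at 0 in all 30 libraries, and it carries no library depth, because TPM keeps none.

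TPM were summed by gene name, and DAZL was matched by introns. log2(TPM + 1) of 19911 genes with at least 1 TPM in 3 libraries was fitted with limma 3.58.1 (R 4.3.3, trend), in 1 model of 10 groups for glands and the 6 libraries of a gland for breeds. Reads have exact Poisson intervals. All 10 members were named, the 2 genes of highest testis mean of each other list, list genes called between breeds in testis, and the 2 nearest genes of each member. Members and lists were chosen with earlier results of these data known. The pipeline was tested on simulated data. Small RNA libraries were not used.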

Additional observations from a re-analysis of the deposited data

How the results depend on the processing

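Most values kept their direction and their side of the thresholds under a constant of 0.1, other filters, median-of-ratios size factors, limma without trend, gene IDs in place of names, other groupings of libraries and leaving out libraries. Exceptions are given here, and their causes were not tested except where named. With 0.1 added to TPM, 7 members in place of 4 were called between testis and the mean of the other glands (4 higher, 3 lower), and 5 in place of 3 against the bulbourethral gland, as low genes are compressed less by the smaller constant. The shares of all genes given above belong to the constant of 1, so these counts cannot be set against them. Leaving out libraries, the first count ranged from 4 to 5, with GFRA1 called without replicate 1 of all groups (-1.07, adjusted p = 0.026), the calls against the vesicular gland from 5 to 7, against the prostate and bulbourethral glands from 3 to 4 each, and those between pairs of the other glands, 15 in all, from 10 to 15. Uncalled breed values in testis moved by over 1.5 times in several members, UCHL1 from 0.60 to 1.26, ZBTB16 from 0.11 to 1.12, KIT from -0.71 to -0.29 and DAZL from -1.01 to -0.38. Counting fusion isoforms, the members had 1052 Iso-seq reads in place of 982, by construction. Leaving out single testis libraries, the small breed difference of NANOS3 (-0.10) ranged from -0.18 to 0.038, above 0 without BMI replicate 3. ID4 without DSE testis replicate 2 stayed lower in testis (-1.68, adjusted p = 0.0089), and UCHL1, DMRT1 and DAZL stayed higher (1.75, 5.12 and 5.97).

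Breed counts over all genes moved far more than those of the members, which were 0 in every alternative run. In testis 39 genes were called in the fit of that gland and 949 in 1 fit of all libraries, 63 with 0.1 added and 87 with a mean of at least 1 TPM, and leaving out 1 testis library gave 0 to 70. With 3 libraries per breed and the spread seen, differences of 1 in ID4 or UCHL1 lie inside the intervals. Same-numbered libraries deviated together (r over 0.1) in 4 of 15 pairs between breeds and 20 of 60 pairs between glands, with r of -0.56 to 0.37 and -0.30 to 0.39, and 3 and 30 of them were best matched by their own number. Between glands this was uneven: in DSE all 3 pairs exceeded 0.1 for testis with vesicular gland (0.15 to 0.29) and epididymis with vesicular gland (0.23 to 0.39), but not in BMI, so the numbers were not taken as pairs over both breeds. With the replicate number as a block, 4 members were called between testis and the mean of the other glands and 0 between breeds, where 0 of all genes in testis were. Numbers within each breed as the block, an alternative chosen after seeing the data, also gave 4, with 4, 7, 4 and 3 against the single glands and 15 between the others.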
